A study of Mus musculus with 15 samples.

Results

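The 6 libraries of mouse gut organoids with the code T75 were compared, 3 with the label DMSO and 3 with the label nativ, out of 9 organoid libraries and 15 libraries in the whole series. The 6 were chosen by these labels alone. All 6 are titled JUPfl/fl, that is, both copies of Jup are floxed, and no Cre driver is named in their titles, in contrast to the 3 Tamoxifen organoid libraries coded T41, which are titled iVilCre ERT2JUPfl/fl. Jup encodes plakoglobin, a catenin of desmosomes and adherens junctions. DMSO is the solvent in which tamoxifen compounds are commonly given to cultures. The labels do not explain the word nativ and give no DMSO concentration, exposure time, age or number of animals. Both groups share 1 code, so they may come from 1 organoid line, and nothing says that the 3 libraries of a group came from separate cultures. The p-values below then measure only the spread between these libraries, which may be technical.

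Organoids are epithelial cultures grown in a gel from the stem cells of a tissue. They divide under the growth factors of the medium, chiefly Wnt, R-spondin and EGF receptor signals, and lack the immune, stromal and vascular cells of the gut wall. DMSO is a polar solvent that crosses membranes, adds to the osmolarity of the medium and at high concentrations slows division and induces differentiation in many cell types. A vehicle group is therefore the reference for any compound dissolved in it, and an untreated group shows what the vehicle and its handling leave behind. The labels do not say that the nativ organoids were such an untreated group.

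The deposited reads per gene summed to between 25185053 and 30526265 per library, and 15156 of the 45905 genes in the table had enough reads to be tested. Levels are given as CPM, read counts scaled to library size with TMM factors, and changes as the fitted log2 of DMSO over nativ, so that a positive value is higher in DMSO. Epithelial genes were high in all 6 libraries: Epcam lay between 383 and 583 CPM and Vil1, the villin of microvilli, between 184 and 248. The intestinal factor Cdx2 was present at 15.0 to 19.8 CPM, whereas Cdx1, Gata4, Fabp2 and the goblet cell gene Tff3 stayed below 0.5 CPM in every library. Of 21 genes of stomach, bile duct and pancreas 12 had enough reads to be tested, among them Sox17 (27.8 to 36.9 CPM) and Pdx1 (20.4 to 29.7 CPM), while Sox2, Ptf1a and Gkn1 had no read. None of 16 enteroendocrine genes had enough reads to be tested, and Ptprc, the pan-leukocyte gene, had no read in any library. Jup measured 345, 389 and 396 CPM with DMSO and 377, 305 and 388 CPM in nativ, a log2 change of 0.08 (SE 0.15), and the groups overlapped.

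No gene passed a Benjamini-Hochberg adjusted p of 0.05 in edgeR's quasi-likelihood test (percent called: 0), in which the lowest adjusted p was 0.603. At an unadjusted p below 0.05 there were 1198 genes (7.9%), 551 higher with DMSO (3.64%) and 647 lower (4.27%). DESeq2 called 11 genes (0.0665%), 3 higher and 8 lower, the likelihood ratio test of edgeR called 25 (0.165%), and DESeq2 with all 9 organoid libraries called 138 (0.919%). The limma-voom test called none, with 1174 genes below an unadjusted p of 0.05. For 2524 genes (16.7%) all 3 DMSO values lay on 1 side of all 3 nativ values, 1263 higher (8.33%) and 1261 lower (8.32%). The typical change was small: the median size of the fitted log2 change was 0.18, with 51.8% of genes below 0 and 48.2% above. The words higher and lower below give the direction of the fitted change. Only the 11 genes that DESeq2 called are said to have risen or fallen. In simulated counts DESeq2 made 46 false calls and edgeR's quasi-likelihood test 13.

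A pair of libraries stood apart from the other 4, 1 in each group. Nativ 2 was the highest of the 6 libraries for 32.1% of genes and the lowest for 34.4%, and DMSO 1 was the highest for 24.3% and the lowest for 23.4%. Nativ 3 was the highest for 8.34% and the lowest for 6.07%. The median distance of a gene from the median of the 6 libraries was 0.28 on the log2 scale in nativ 2 and 0.17 in DMSO 1, against 0.07 in nativ 1 and in nativ 3. The first principal component held 48.0% of the variance, with nativ 2 at one end and DMSO 1 at the other. Nativ 1 and nativ 3 were the closest pair (median difference between them 0.11 on the log2 scale), while nativ 2 differed from the other libraries by 0.31 to 0.41. The RNA input differed between some libraries of the study (300 ng for 4 and about 200 ng for 2, per the labels), but the labels do not say which, and its part in these distances was not tested.

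The genes with the smallest p-values leaned on these 2 libraries. Of the 1198 genes at an unadjusted p below 0.05, 544 (45.4%) were still below it without nativ 2, 394 (32.9%) without DMSO 1 and 461 (38.5%) without both. Leaving out any 1 of the other 4 libraries kept 60.0% to 71.8%. Among the 551 genes higher with DMSO, DMSO 1 was the highest library for 400 and nativ 2 the lowest for 480. Among the 647 genes lower with DMSO, DMSO 1 was the lowest for 423 and nativ 2 the highest for 533. Without nativ 2 the median size of the change dropped to 0.12, and 19.5% of genes changed sign. The main gene groups below are therefore given with their values when these libraries are left out.

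Nativ 2 departed from the others along gene length. The tested genes were put in 5 bins by their combined exon length, from 54 to 1556 bases in the shortest bin to 6173 to 125635 in the longest. In the shortest bin nativ 2 lay 0.44 above the median of the 6 libraries on the log2 scale, in the longest 0.30 below it. DMSO 3 ran the other way with a smaller slope, from -0.16 to 0.08. The remaining 4 libraries stayed within 0.04 of the median in every bin. The DMSO minus nativ change had a median of -0.23 in the shortest bin and 0.10 in the longest. Without nativ 2 these medians were -0.02 and 0.02. Protein-coding genes other than ribosomal proteins gave the same picture, with -0.19 and 0.11.

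**Figure D1:**
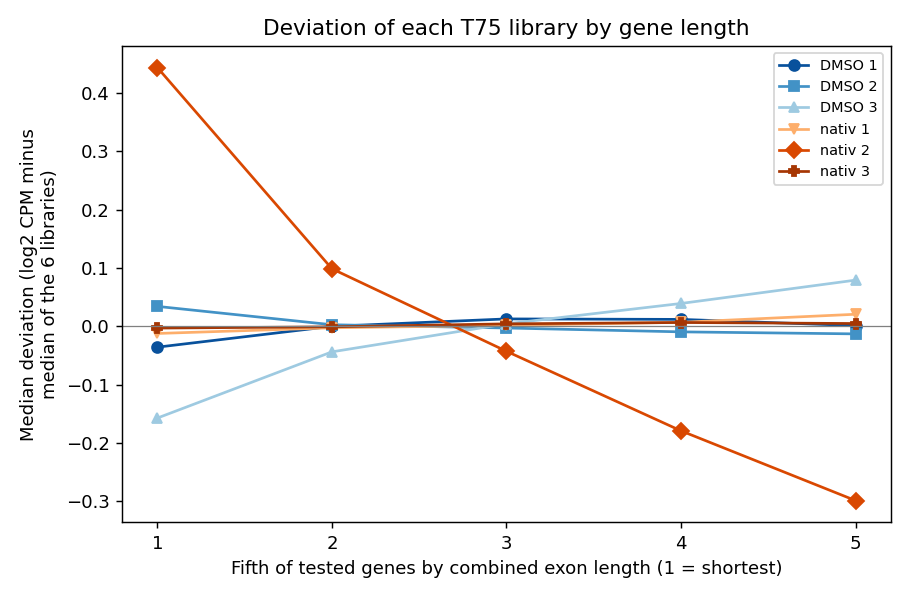
Median deviation of each of the 6 T75 libraries (y axis, log2 CPM minus the median of the 6 libraries) in 5 bins of tested genes by combined exon length (x axis, 1 is shortest). The nativ 2 line falls from 0.44 to -0.30, the DMSO 3 line climbs from -0.16 to 0.08, and the other 4 lines stay near 0.

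Ribosomal proteins, which build both subunits of the cytosolic ribosome, have short mRNAs (median combined exon length 821 bases). All 77 tested members were lower with DMSO, with a median change of -0.37, yet none had an unadjusted p below 0.05 and none had groups that did not overlap. Nativ 2 was the highest library for 76 of the 77 and DMSO 3 the lowest for 69. The median was 0.00 without nativ 2, and -0.13 with all 6 libraries when a smooth curve of deviation on gene length was taken out of each library. The 30 tested nuclear genes of the respiratory chain (median length 1480 bases) moved from a median of -0.22 to -0.01 without nativ 2. The 27 tested genes of adherens and tight junctions (median length 4039 bases) went from 0.15 to 0.04. By contrast, the median change of every chromosome lay between -0.06 and 0.02.

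Nativ 2 also held more reads of genes that had few or none in the other T75 libraries. A set of 99 genes, chosen after the data were seen, had a mean of at least 50 CPM in the T41 organoids and a median below 0.15 CPM over the 6 T75 libraries. In nativ 2, 97 of them had at least 1 read, against 39 to 53 in the other libraries. Their summed level was 0.110% of the T41 sum in nativ 2 and 0.0120% to 0.0202% in the others. Sis, the sucrase-isomaltase of the enterocyte brush border, had 82 reads in nativ 2 and 2 to 4 in each other T75 library, against a mean of 2928 CPM in T41. Lyz1, the lysozyme of Paneth cells, had 37 reads in nativ 2 and 0 to 3 elsewhere. Alpi, the intestinal alkaline phosphatase, had 11 reads in nativ 2 and none in the other 5. Within nativ 2 the ratio to the T41 level had a median of 0.0994% and quartiles of 0.0718% and 0.138%. Only 57 of the 99 genes had 4 reads or more there, so many single ratios rest on few reads. Tff2, a trefoil peptide of the stomach and pancreas, had 40 reads in nativ 2 and none in the other T75 libraries, and was at 0 in T41 as well. None of the 99 genes had enough reads to enter edgeR's test of the 6 libraries, which their choice by a low median in T75 fixed in advance. DESeq2 did fit such genes. It called Sis as lower with DMSO without nativ 1 (adjusted p 0.0415) and without nativ 3 (adjusted p 0.0499). How these reads came into nativ 2 was not tested. At 0.110% of the T41 level, Spink4 would stand at 0.377 CPM and Birc5 at 0.0584 CPM. Nativ 2 showed 136 and 23.1 CPM for them by its library total. For the tested enterocyte genes Slc5a1 and Anpep the same share would be 1.73 and 0.855 CPM. Nativ 2 showed 2.56 and 1.49 CPM for these, so there the share would be a large part of the level. This share covers only genes present in T41, and Tff2 was not among them. The part of such reads in other levels of nativ 2 was not tested.

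**Figure D2:**
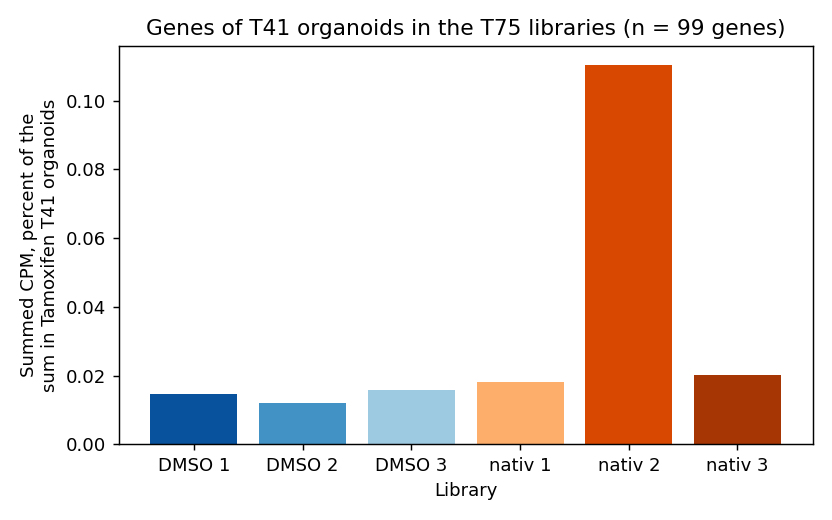
Summed CPM of the 99 genes in each T75 library (bars, y axis, as a percent of their summed level in the Tamoxifen T41 organoids). The nativ 2 bar reaches 0.110%, and the other 5 lie between 0.0120% and 0.0202%.

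The genes that fell with DMSO by DESeq2 were led by Olfm4 and Sult1c2. Olfm4 (chr14:80000302-80023141 in GRCm38.p6, as are all positions here), a secreted olfactomedin that marks crypt stem cells of the small intestine, measured 0.552, 1.10 and 1.57 CPM with DMSO and 7.0, 5.88 and 3.00 CPM in nativ. All DMSO libraries were below all nativ libraries, although nativ 3 was nearer to DMSO 3 than to nativ 1. The log2 change was -2.30 (SE 0.42, DESeq2 adjusted p 2.0e-04), and it was -2.20 without nativ 2 and -1.97 without DMSO 1. Sult1c2 (chr17:53829637-53845958), a cytosolic sulfotransferase, measured 3.70, 4.86 and 7.70 CPM with DMSO and 22.9, 29.8 and 11.7 CPM in nativ. Its change of -1.98 (SE 0.37, DESeq2 adjusted p 8.2e-05) was -1.65 without nativ 2, and it was the only gene that DESeq2 still called then. In edgeR's test both had an adjusted p of 0.603.

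Other stem cell genes did not share the difference of Olfm4. Lgr5, the R-spondin receptor of crypt stem cells, measured 34, 63.2 and 82.2 CPM with DMSO and 52.7, 58.4 and 67.2 CPM in nativ, and the groups overlapped. Of 20 tested Wnt targets and stem cell genes 17 were higher with DMSO, with a median of 0.12 beside -0.01 over all tested genes, and 5 higher and 1 lower had an unadjusted p below 0.05, beside 3.64% and 4.27% of all genes. The median was 0.12 without nativ 2, 0.22 without DMSO 1 and 0.20 without nativ 3. Rnf43, which removes Wnt receptors from the cell surface, measured 225, 181 and 228 CPM with DMSO and 159, 97.3 and 170 CPM in nativ, a log2 change of 0.57 (SE 0.21). Znrf3, its relative, was also higher in all 3 DMSO libraries, with a log2 change of 0.48 (SE 0.17). For Rnf43 nativ 2 was far below the other 2 nativ libraries, and the change was 0.37 without it.

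The other genes that fell by DESeq2 included Ifit1bl1. Ifit1bl1 (chr19:34592888-34662981), of the interferon-induced IFIT family, measured 6.56, 2.58 and 6.86 CPM with DMSO and 13.8, 13.6 and 15.5 CPM in nativ. Here nativ 2 was the lowest nativ library but lay close to nativ 1. The log2 change was -1.41 with all 6 libraries (SE 0.31, DESeq2 adjusted p 0.0117) and -1.43 without nativ 2. The 33 tested interferon response genes did not share this difference: 11 were higher and 22 lower, the median was -0.06, and none had groups that did not overlap. They differed within the groups instead, with DMSO 3 the highest library for 21 and DMSO 2 the lowest for 25. Without DMSO 2 the median was 0.14 and without nativ 3 it was 0.11, while without DMSO 3 it was -0.31 and without nativ 1 it was -0.15. It was -0.10 without nativ 2 and -0.01 without DMSO 1. Oasl2, an interferon-induced protein of the oligoadenylate synthetase family, showed this with 57.2, 40.3 and 112 CPM with DMSO and 56.8, 72.4 and 91.5 CPM in nativ. Crct1, a gene of the epidermal differentiation complex, measured 13.4, 4.50 and 9.68 CPM with DMSO and 22.9, 35.1 and 20.1 CPM in nativ (log2 change -1.50, DESeq2 adjusted p 0.0167). Its groups did not overlap, and the change was -1.86 without DMSO 1, -1.20 without nativ 2 and -1.18 without DMSO 2. The others that fell were Pclaf, Ccl2, 2210407C18Rik and AU021092.

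**Figure D3:**
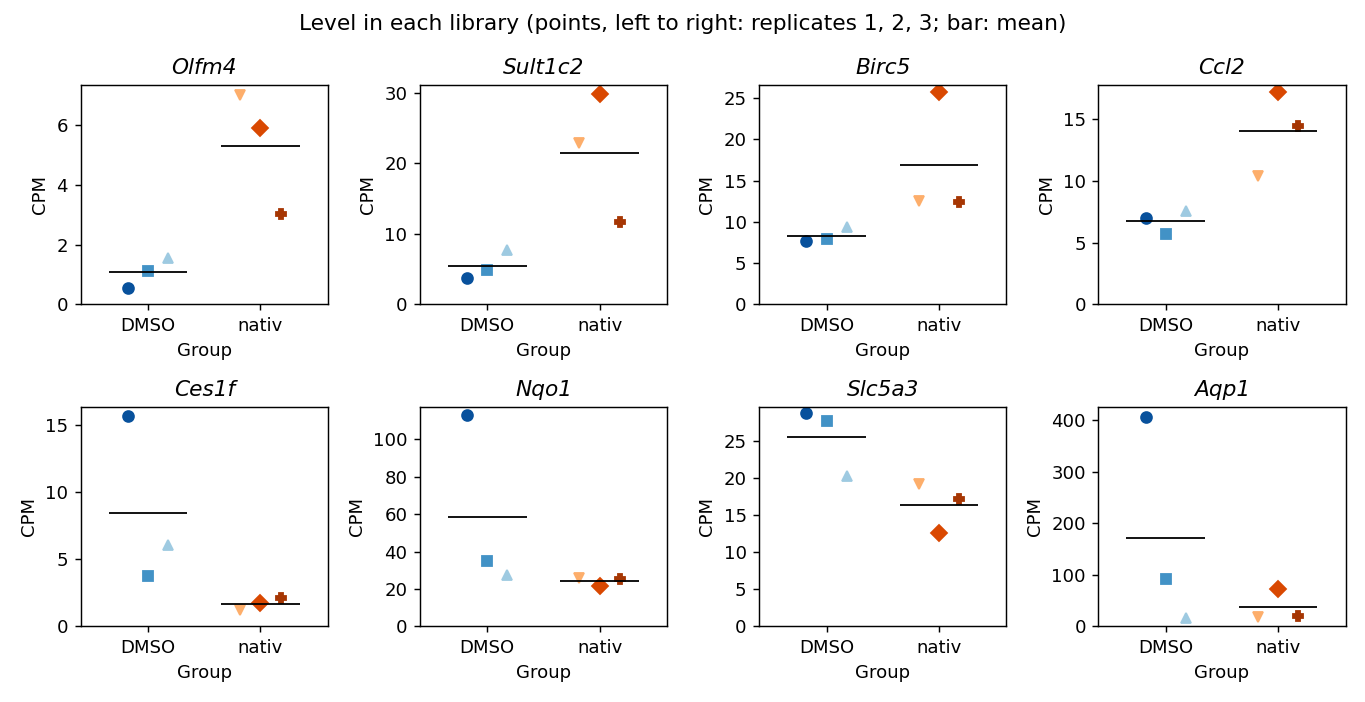
CPM (y axis, from 0) of 8 genes in each library, with the DMSO group on the left and nativ on the right, replicates 1, 2 and 3 from left to right in each group, and the group mean as a bar. Olfm4, Sult1c2, Birc5 and Ccl2 were lower in every DMSO library, Ces1f, Nqo1 and Slc5a3 were higher in every DMSO library, with Nqo1 set apart by DMSO 1, and Aqp1 overlapped.

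Cell division genes were lower with DMSO as a group. The mitosis list, of kinases, cyclins and spindle proteins that peak when a cell divides, had 44 tested members, all of them lower, with a median change of -0.43 beside -0.01 over all tested genes. In bulk RNA fewer dividing cells and less RNA per dividing cell cannot be told apart. Of the 44, 15 had an unadjusted p below 0.05, beside 4.27% of all genes in that direction, and 9 had groups that did not overlap, beside 8.32%. DMSO 1 was the lowest library for 34 members and nativ 2 the highest for 32. The median was -0.29 without nativ 2, -0.30 without DMSO 1 and -0.14 without both. DMSO 3 did not lie with the other DMSO libraries: its median deviation was 0.08, against -0.59 in DMSO 1 and -0.39 in DMSO 2, and without DMSO 3 the list's median was -0.66.

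Birc5 (survivin, of the chromosomal passenger complex) had the smallest p of the list. It measured 7.67, 7.97 and 9.33 CPM with DMSO and 12.5, 25.7 and 12.4 CPM in nativ. The groups did not overlap, but nativ 2 was far above the rest, and the log2 change of -1.01 (SE 0.28) was -0.56 without it. Ccna2, the cyclin of S phase and entry into mitosis, measured 16.2, 22.9 and 30.1 CPM with DMSO and 36.4, 59.3 and 34.7 CPM in nativ, a log2 change of -0.91 (SE 0.27). Bub1, a spindle checkpoint kinase, had a change of -0.82 (SE 0.24), and Foxm1, a transcription factor of mitotic genes, one of -0.63 (SE 0.20). For both, all DMSO libraries were below all nativ libraries.

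DNA replication and S phase genes differed less but more evenly. Of 40 tested members 37 were lower with DMSO, with a median of -0.29, and 17 had groups that did not overlap, all of them lower, beside 8.32% of all genes. The median was -0.23 without nativ 2, -0.27 without DMSO 1 and -0.24 without both, so it moved less than that of the mitosis list. Pclaf (chr9:65890323-65903551), which binds the replication clamp PCNA, fell by DESeq2, from 11.8, 20.8 and 14.3 CPM in nativ to 6.17, 4.91 and 8.58 CPM with DMSO (log2 change -1.25, SE 0.26, DESeq2 adjusted p 0.0118). Prim1, a subunit of DNA primase, measured 7.25, 8.34 and 7.23 CPM with DMSO and 10.9, 16.1 and 10.9 CPM in nativ, a log2 change of -0.73 (SE 0.19). Mcm5, of the replicative helicase, had a change of -0.52 (SE 0.18) with groups that did not overlap. Odc1, the ornithine decarboxylase that starts polyamine synthesis and is high in dividing cells, measured 91.0, 71.5 and 89.7 CPM with DMSO and 128, 142 and 118 CPM in nativ. Its log2 change was -0.62 (SE 0.14), and -0.54 without nativ 2.

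Promoters of 2 mitosis genes are shown because the list moved together and its members are known to share promoter elements. Each window is the RefSeq sequence of GRCm38.p6 from 250 bases before the start site to 50 after it, 5′ to 3′ on the gene's strand. Capitals mark CCAAT boxes (CCAAT, or ATTGG for the other strand) and the cell cycle homology region, CHR (TTTGAA, or TTCAAA for the other strand). Cdca3 and Cdk1 were picked for their matches after the values were seen.
Cdca3 (chr6:124829926-124830225, plus strand): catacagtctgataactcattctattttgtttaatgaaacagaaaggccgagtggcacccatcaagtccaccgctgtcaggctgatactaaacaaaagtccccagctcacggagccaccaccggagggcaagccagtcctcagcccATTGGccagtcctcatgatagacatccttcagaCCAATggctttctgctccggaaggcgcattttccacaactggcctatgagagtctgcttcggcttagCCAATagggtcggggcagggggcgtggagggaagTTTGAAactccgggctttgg
Cdk1 (chr10:69352863-69353162, minus strand): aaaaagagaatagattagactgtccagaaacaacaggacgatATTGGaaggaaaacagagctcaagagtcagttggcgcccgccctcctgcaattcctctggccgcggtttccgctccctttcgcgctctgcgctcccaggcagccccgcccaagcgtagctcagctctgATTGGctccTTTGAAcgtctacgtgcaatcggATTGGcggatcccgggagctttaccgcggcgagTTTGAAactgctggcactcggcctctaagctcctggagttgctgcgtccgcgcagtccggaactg
Of the 37 mitosis genes with a promoter in the table, 26 (70.3%) held a CHR match on either strand, beside 12.1% of the 10813 tested genes with a promoter, and 29 (78.4%) held a CCAAT match, beside 39.2%. Among 33 replication genes the CHR was found in 9.09% and CCAAT in 57.6%. Such shares rest on list membership among tested genes and not on the change with DMSO. A link to that change was not tested. Birc5 and Bub1 held no CHR match in this window. Cdca3, a cell division cycle protein, measured 12.5, 14.3 and 19.5 CPM with DMSO and 20, 44.7 and 22.6 CPM in nativ. Cdk1, the kinase that drives mitosis, measured 46.5, 49.1 and 56.8 CPM with DMSO and 59.9, 80.7 and 61.6 CPM in nativ. For both genes the groups did not overlap and nativ 2 was the highest library.

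Cytokines and chemokines were lower with DMSO. Of 31 genes on the list 24 were tested and 20 of them were lower, with a median change of -0.45. In all, 8 had an unadjusted p below 0.05 and 10 had groups that did not overlap in that direction, beside 4.27% and 8.32% of all genes. The median was -0.46 without nativ 2, -0.31 without DMSO 1, -0.67 without DMSO 3 and -0.30 with gene length taken out. DMSO 1 was the lowest library for 15 of the 24. The list's median deviation was -0.55, -0.21 and 0.00 in DMSO 1, 2 and 3, and 0.05, 0.13 and 0.21 in nativ 1, 2 and 3. DMSO 3 thus lay close to nativ 1. Ccl2 (chr11:82035577-82037452), a chemokine for monocytes, fell by DESeq2, with 6.99, 5.72 and 7.61 CPM with DMSO and 10.4, 17.2 and 14.4 CPM in nativ. Its groups stood well apart, and its log2 change of -1.05 (SE 0.21, DESeq2 adjusted p 0.0167) was -0.86 without nativ 2 and -1.07 without DMSO 1. Cxcl1, a chemokine for neutrophils, measured 21.1, 22.2 and 36.5 CPM with DMSO and 41.1, 44.1 and 45.0 CPM in nativ, a log2 change of -0.71 (SE 0.21). The related Cxcl2 and Cxcl3 had changes of -0.90 (SE 0.27) and -0.81 (SE 0.24). In all 3, DMSO 3 was the DMSO library nearest to nativ.

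Il1a, an alarmin of the interleukin-1 family, measured 5.13, 7.64 and 9.96 CPM with DMSO and 13.5, 12.5 and 11.8 CPM in nativ. Csf2, the growth factor GM-CSF, measured 2.08, 5.64 and 5.14 CPM with DMSO and 6.78, 7.30 and 8.57 CPM in nativ. For both, all nativ libraries were above all DMSO libraries, and nativ 2 did not stand apart. Il11 went the other way, with 0.747, 0.981 and 1.03 CPM with DMSO and 0.544, 0.0769 and 0.648 CPM in nativ. Its nativ 2 value was below the level of 3 reads in that library (0.115 CPM). The remaining nativ values were also below every DMSO value, but all of these levels are low. Among 23 tested NF-kB factors, inhibitors and targets, 20 were lower but the median was only -0.11, and it was 0.03 without DMSO 1. Of 15 tested inflammasome and gasdermin genes, 7 were higher and 8 lower, with a median of -0.07 that ran from -0.16 without DMSO 3 to 0.04 without DMSO 2, and was 0.01 without DMSO 1. The 28 tested p38 pathway genes had a median of -0.03, which was 0.03 without DMSO 1 and 0.03 with library totals in place of TMM factors.

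The promoters of Cxcl1 and Cxcl2 are shown, as windows of the same kind, because both genes were lower and both windows hold a match to the kappaB motif, GGGA and TTCC with any 2 bases between them, to which NF-kB proteins bind. Capitals mark the match, in which the letters on both strands overlap.
Cxcl1 (chr5:90890995-90891294, plus strand): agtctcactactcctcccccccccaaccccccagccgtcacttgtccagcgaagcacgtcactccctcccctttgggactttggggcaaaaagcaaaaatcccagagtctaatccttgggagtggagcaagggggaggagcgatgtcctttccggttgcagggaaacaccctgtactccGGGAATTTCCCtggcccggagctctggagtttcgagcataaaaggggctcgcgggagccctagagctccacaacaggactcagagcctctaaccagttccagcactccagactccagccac
Cxcl2 (chr5:90903649-90903948, plus strand): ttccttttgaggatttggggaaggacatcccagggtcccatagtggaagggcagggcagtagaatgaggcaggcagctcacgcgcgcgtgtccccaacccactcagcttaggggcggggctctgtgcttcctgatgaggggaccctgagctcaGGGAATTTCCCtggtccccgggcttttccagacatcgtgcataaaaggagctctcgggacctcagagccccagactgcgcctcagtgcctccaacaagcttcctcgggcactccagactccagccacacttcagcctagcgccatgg
The match was found in 5 of 17 cytokine and chemokine genes with a promoter in the table (29.4%), beside 1.46% of tested genes. These shares depend on which genes are on the list, not on their change with DMSO. Whether the match bears on the lower levels was not tested. The 5 were Cxcl1, Cxcl2, Cxcl3, Cxcl10 and Csf1. Csf1, a growth factor of macrophages, had overlapping groups.

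Genes higher with DMSO were led by Ces1f (chr8:93256236-93279766), a carboxylesterase that hydrolyses esters. It measured 15.7, 3.72 and 6.04 CPM with DMSO and 1.25, 1.73 and 2.08 CPM in nativ. The groups did not overlap, DMSO 1 was the highest, and the log2 change of 2.34 (SE 0.50, DESeq2 adjusted p 8.5e-04) was 1.54 without it. Ces1f belongs to a cluster of closely related carboxylesterase genes, among which reads can be shared. Slc38a3 (chr9:107651154-107668968), a glutamine transporter, measured 16.3, 6.83 and 6.42 CPM with DMSO and 3.97, 2.19 and 3.99 CPM in nativ (log2 change 1.54, DESeq2 adjusted p 0.0493). Without DMSO 1 its change was 0.96. Slc1a4, a transporter of serine and other neutral amino acids, had the same shape, with 152, 54.0 and 59.3 CPM with DMSO and 36.8, 27.9 and 42.2 CPM in nativ, and its log2 change of 1.31 was 0.67 without DMSO 1. The third gene that rose by DESeq2 was TrnD, a mitochondrial tRNA, at 5.52, 2.86 and 3.73 CPM with DMSO and 1.34, 1.65 and 1.09 CPM in nativ. A poly-A library samples tRNA poorly.

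NRF2 and antioxidant genes were mostly higher with DMSO. NRF2 is a transcription factor that raises glutathione synthesis and detoxification when its inhibitor KEAP1 is modified by oxidants or electrophiles. Of 22 tested genes 19 were higher, with a median change of 0.31. In all, 10 had an unadjusted p below 0.05 and 10 had groups that did not overlap in that direction, beside 3.64% and 8.33% of all genes. DMSO 1 was the highest library for 17, and its median deviation was 0.64, against 0.12 in DMSO 2 and 0.00 in DMSO 3. Without DMSO 1 the list's median was 0.20, and without both DMSO 1 and nativ 2 it was 0.15.

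Nqo1, the quinone reductase that is a standard NRF2 target, measured 113, 35 and 27.3 CPM with DMSO and 25.9, 21.8 and 25.3 CPM in nativ. Only DMSO 1 was far from nativ, and the log2 change of 1.26 (SE 0.46) was 0.36 without it. Gclc, the catalytic subunit of the enzyme that limits glutathione synthesis, measured 1972, 1119 and 1038 CPM with DMSO and 896, 572 and 801 CPM in nativ. All DMSO libraries were above all nativ libraries, and the change of 0.86 (SE 0.28) was 0.51 without DMSO 1 and 0.71 without nativ 2. Slc7a11, the cystine transporter that feeds this synthesis, had a change of 1.02 (SE 0.35) with overlapping groups, and 0.55 without DMSO 1. The iron storage genes Ftl1 and Fth1 and the thioredoxin gene Txn1, were the 3 that were lower, and nativ 2 was the highest library for each.

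Among the efflux pumps of the ABCC family, which export glutathione conjugates and other anions, Abcc1, Abcc3, Abcc4 and Abcc5 were higher in all 3 DMSO libraries. Abcc4 measured 497, 277 and 328 CPM with DMSO and 219, 119 and 242 CPM in nativ, a log2 change of 0.93 (SE 0.29) that was 0.65 without DMSO 1. Abcc3 measured 626, 555 and 644 CPM with DMSO and 463, 326 and 452 CPM in nativ, and there DMSO 1 did not stand apart: its change of 0.56 (SE 0.17) was 0.54 without DMSO 1. Abcc1 and Abcc5 had changes of 0.79 (SE 0.24) and 1.17 (SE 0.34), which were 0.47 and 0.65 without DMSO 1. Abcc2, at 0.123 to 1.54 CPM over the 6 libraries, overlapped. On the list of xenobiotic metabolism 14 of 21 tested genes were higher, 6 of them at an unadjusted p below 0.05, beside 3.64% of all genes. The median was 0.16, and it was 0.15 without nativ 2, 0.11 without DMSO 1 and 0.25 without nativ 1. Cyp1a1 had no read, and Cyp2s1 was lower, at 107, 310 and 389 CPM with DMSO and 462, 565 and 415 CPM in nativ.

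Osmotic response genes and water channels were higher in 15 of 17 tested members, with a median of 0.34, which was 0.24 without nativ 2, 0.26 without DMSO 1 and 0.19 without both. In all, 7 had an unadjusted p below 0.05 and 5 had groups that did not overlap, all of them higher, beside 3.64% and 8.33% of all genes in that direction. Slc5a3, which takes up the osmolyte inositol, measured 28.8, 27.7 and 20.2 CPM with DMSO and 19.2, 12.6 and 17.1 CPM in nativ, a log2 change of 0.65 (SE 0.20). Lrrc8a, the essential subunit of the volume-regulated anion channel, measured 38, 36.4 and 39.2 CPM with DMSO and 30.3, 29.3 and 30.4 CPM in nativ. Both groups were tight and did not overlap, with a log2 change of 0.34 (SE 0.11) that was 0.33 without nativ 2 and 0.34 without DMSO 1. Aqp1, a water channel, differed widely within each group: 407, 92.3 and 16.5 CPM with DMSO and 17.2, 72.8 and 19.4 CPM in nativ. Its groups overlapped, and the change of 2.24 (SE 0.98) was 0.58 without DMSO 1 and 3.24 without nativ 2.

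Glycolysis and hypoxia response genes were lower in 26 of 30 tested members, and DMSO 1 was the lowest library for 27. Their median of -0.26 was -0.08 without DMSO 1. Bnip3, a mitophagy receptor induced by hypoxia, measured 93.1, 267 and 238 CPM with DMSO and 289, 505 and 291 CPM in nativ. DMSO 1 was low and nativ 2 high, and the log2 change of -0.86 (SE 0.37) was -0.19 without both. Cholesterol synthesis genes followed DMSO 1 too: 18 of 25 were higher, DMSO 1 was the highest library for 19, and the median of 0.11 was -0.05 without it. Dhcr7, the reductase that makes cholesterol from its last precursor in one branch of the pathway, was higher in all DMSO libraries, at 90.4, 72.2 and 77.6 CPM against 59.8, 55.7 and 66.3 CPM in nativ. Its log2 change was 0.40 (SE 0.13), and 0.30 without DMSO 1. Genes of no list set DMSO 1 apart too, among them Pgc, a pepsinogen, at 16.8 CPM against 0.577 to 2.43 in the other 5, and Pigr, the transporter of IgA, at 1.88 CPM against 10.1 to 24.0.

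**Figure D4:**
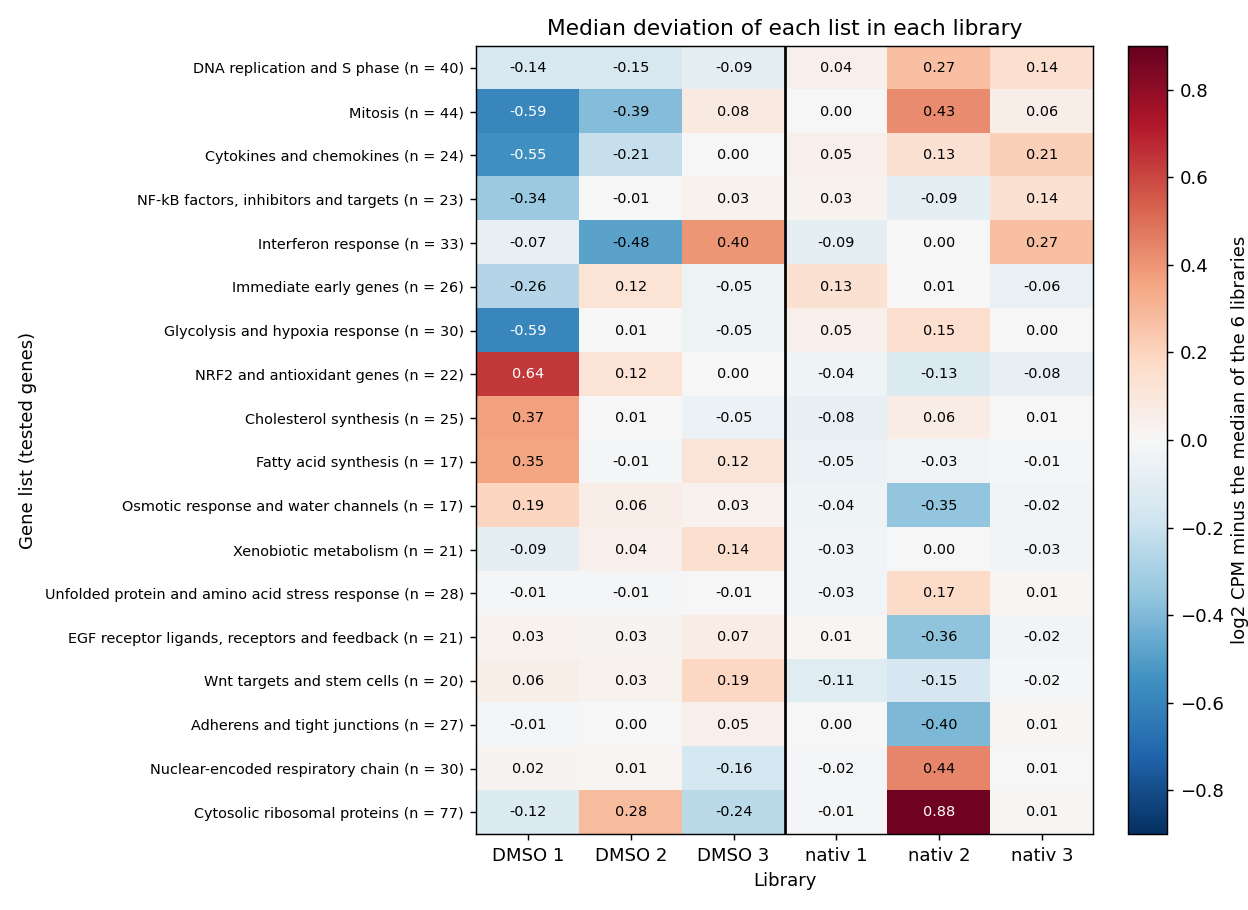
Median deviation (colour and printed value, log2 CPM minus the median of the 6 libraries) of 18 gene lists (rows) in the 6 T75 libraries (columns, DMSO left of the black line, nativ right). Nativ 2 reaches 0.88 for ribosomal proteins and DMSO 1 0.64 for NRF2 genes and -0.59 for mitosis and for glycolysis genes, while nativ 1 and nativ 3 stay between -0.11 and 0.27.

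Lamb2, Tert and Msrb2 differed with either of the 2 libraries left out. Lamb2, the beta chain of several basement membrane laminins, measured 128, 117 and 132 CPM with DMSO and 89.5, 66.1 and 93.8 CPM in nativ. Its log2 change was 0.59 (SE 0.15), and 0.47 without nativ 2 and 0.58 without DMSO 1. Tert, the catalytic subunit of telomerase, measured 18.1, 13.3 and 11.6 CPM with DMSO and 9.15, 6.30 and 8.33 CPM in nativ, a change of 0.85 (SE 0.21) that was 0.73 without nativ 2 and 0.65 without DMSO 1. Msrb2, a methionine sulfoxide reductase, measured 1.98, 1.88 and 1.47 CPM with DMSO and 2.40, 3.31 and 3.04 CPM in nativ, a change of -0.71 (SE 0.24) that was -0.60 without nativ 2 and -0.80 without DMSO 1. All 3 genes had groups that did not overlap, and none passed the adjusted threshold in edgeR, or in DESeq2 with these 6 libraries. DESeq2 with all 9 organoid libraries called Lamb2 (adjusted p 0.00758) and Tert (adjusted p 0.0059), and DESeq2 without DMSO 3 called Tert (adjusted p 0.0391). Desmosome genes other than Jup had a median of 0.08 over 11 tested members, -0.01 without nativ 2, 0.17 without DMSO 1 and -0.05 without DMSO 3.

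**Figure D5:**
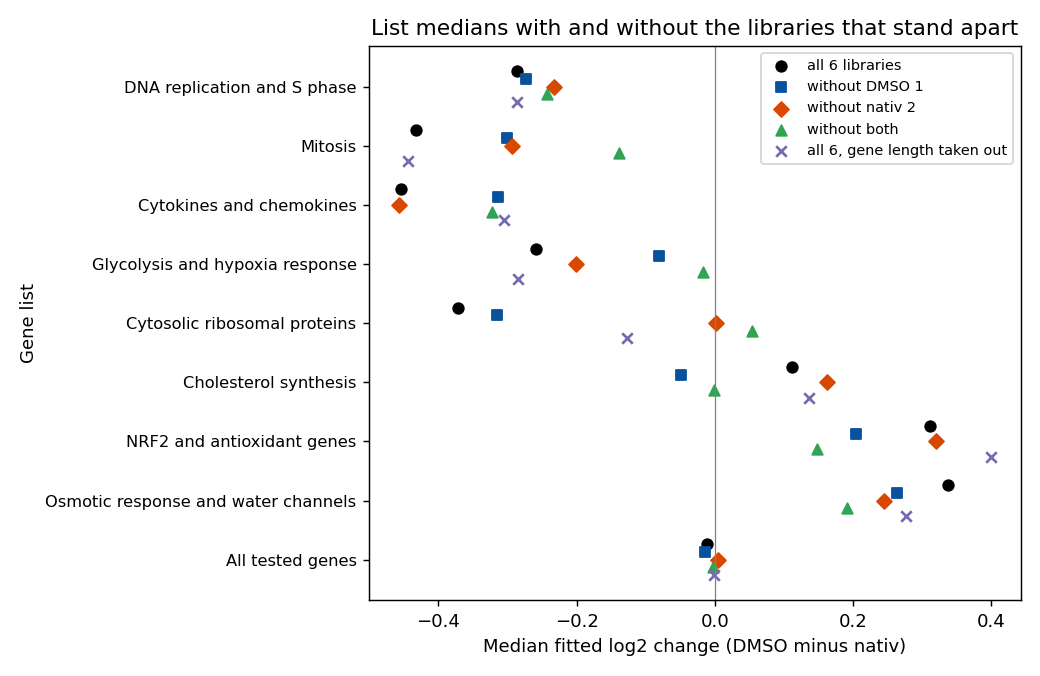
Median fitted log2 change (x axis, DMSO minus nativ) of 8 gene lists and of all tested genes (rows) with all 6 libraries, without DMSO 1, without nativ 2, without both, and with gene length taken out. Ribosomal proteins reach 0.00 without nativ 2, glycolysis genes -0.08 without DMSO 1, mitosis genes -0.14 without both, and DNA replication genes stay between -0.23 and -0.29.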

How the data were processed

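Poly-A RNA of the organoids was sequenced. Per the submitters' processing notes, bcl2fastq 2.20.0.422, cutadapt 2.5, STAR 2.7.2b and featureCounts 1.6.4 were used with the genome build GRCm38.p6. The values deposited by the authors are expected counts: reads per gene of which 10.4% to 12.2% per library (over all genes in the table) were not whole numbers, and these were rounded. The 6 T75 libraries were fitted in R 4.3.3 with edgeR 4.0.16 (filterByExpr, TMM, robust quasi-likelihood F test, Benjamini-Hochberg over all tested genes, threshold 0.05). DESeq2 1.42.0 and limma 3.58.1 gave alternatives, and the method was tested on simulated counts. Of 100 genes changed by a log2 of 1, edgeR recovered 90, DESeq2 92 and limma-voom 90. False calls among unchanged genes numbered 13, 46 and 15 in that order. In the simulated counts no library stood apart as nativ 2 and DMSO 1 did. A count of 3 reads, the limit that a count of 0 allows, was worth 0.0939 to 0.123 CPM, and counting error is the only error this covers. A deviation is the log2 CPM (prior count 2) of a library minus the median of the 6.

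The members, the gene lists and the alternatives were chosen with earlier results of these data known. The lists of ribosomal proteins and histone cluster genes were added after the data were seen. Named genes were Jup, the 10 genes in each direction with the largest change (groups not overlapping, 1 group averaging 5 CPM or more), the 10 with the smallest DESeq2 adjusted p in each direction, the 4 lowest p-values of every list, and the 5 in each direction farthest from the median in each library. The text gives those whose values carry a result. Genes named outside this rule, among them Lgr5, Oasl2, Il1a, Csf2, Il11, Cyp2s1, Cdca3, Cdk1, Abcc2, Sis, Lyz1, Alpi and Tff2, were chosen after their values were seen. Mitochondrially encoded proteins were not analysed here.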

Additional observations from a re-analysis of the deposited data

How the results depend on the processing

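No gene passed the threshold in edgeR's quasi-likelihood test under any of the settings tried: the 9 organoid libraries, library totals or RLE factors in place of TMM, 1 CPM in 3 libraries, no low-count filter, each library left out, gene length taken out, and DMSO 1 and nativ 2 left out. The same held for limma-voom without and with quality weights. DESeq2 called 11 genes with 6 libraries and 138 with 9, and the likelihood ratio test called 25. DESeq2 with 1 library left out called 4, 8 and 67 genes without DMSO 1, 2 and 3. It called 16, 1 and 11 without nativ 1, 2 and 3. Some of these calls leaned on nativ 2. Sis was called without nativ 1 and without nativ 3, and Prelp and Ttr without nativ 3, and nativ 2 was the highest library for each. Genes with groups that do not overlap numbered 3473 to 5015 without 1 library and 5297 without DMSO 1 and nativ 2, since fewer libraries overlap less often. The mitosis median was -0.14 without those 2, and -0.66 to -0.29 without 1 library. The cytokine median was -0.22 with gene length taken out and DMSO 1 left out. The deviation of nativ 2 in the shortest bin was 0.28 with library totals and 0.17 with no filter. The change of Jup was -0.0082 in edgeR and -0.0080 in DESeq2 without nativ 2, and at most 0.15 without another library (nativ 3). A replicate block by library number gave 0 calls and 2086 genes at an unadjusted p below 0.05, in place of 1198, but the deviations of same-numbered libraries from their group means correlated at -0.02, 0.25 and 0.12 across genes, and not every library correlated best with its own number, so the numbers were not taken as pairs. The block with gene length taken out gave 0 calls and 1935 such genes. The 4 settings that take out gene length or leave out DMSO 1 and nativ 2 together were chosen after seeing the data. At this depth genes under about 0.123 CPM cannot be told from 0.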

Other observations

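The list of histone cluster genes, added after the data were seen, held only the 8 genes whose symbols begin with Hist. Histone genes under other symbols, such as H2bu2 and H2bc4, were not on it. Its 5 tested members were all lower with DMSO, with a median log2 change of -0.93. DMSO 1 was the lowest and nativ 2 the highest library for all 5, and the median was -0.44 without both. Most histone mRNAs lack a poly-A tail, so a poly-A library samples them in part.

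Among 14 tuft cell genes 7 were tested, and 3 were lower at an unadjusted p below 0.05, beside 4.27% of all genes. The median of the 7 was -0.05, and between -0.30 and 0.01 without 1 library (-0.22 without nativ 2). Alox5ap, the protein that presents arachidonic acid to 5-lipoxygenase, measured 0.910, 1.10 and 1.22 CPM with DMSO and 1.98, 2.77 and 1.95 CPM in nativ, with groups that did not overlap. Cldn1, a claudin of tight junctions, measured 1.43, 1.92 and 2.32 CPM with DMSO and 4.32, 3.50 and 3.04 CPM in nativ, and its log2 change of -0.94 (SE 0.25) was -0.95 without nativ 2. EGF receptor ligands, receptors and feedback genes were higher in 18 of 21 tested members, with a median of 0.14 that was 0.06 without nativ 2. Egf itself measured 0.780, 0.899 and 0.595 CPM with DMSO and 0.352, 0.269 and 0.341 CPM in nativ.

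Col14a1, a fibril-associated collagen, measured 22.1 CPM in nativ 2 and 2.89 to 7.95 CPM in the other 5 libraries, and Prelp, a matrix proteoglycan, 8.92 CPM against 0.478 to 1.85. Col14a1 was at 0.0451 CPM in the T41 organoids.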
